A study of Mus musculus with 14 samples.

Results

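Motoneuron progenitors made from mouse embryonic stem (mES) cells were compared, across all genes, with motoneurons sorted from embryonic spinal cord. The progenitors gave 1 library (pMN below). They came from a wild-type line that carried Olig2:cre with Rosa26:LSL:tdTomato, in which Cre made in Olig2 cells switches on the red protein tdTomato. The line was differentiated to day 4 with retinoic acid and an agonist of sonic hedgehog, and tdTomato-positive cells were sorted. The motoneurons gave 6 wild-type (WT) libraries from embryos of stage E12.5, sorted for green fluorescence from an Hb9::gfp reporter, where Hb9 is the protein of the gene Mnx1. These 7 libraries are part of 14 samples in all, 13 of them with a column in the table analysed. Genes counted were the 14318 of 23523 entries whose higher value, pMN or the WT mean, was at least 10. A difference was called when the pMN value lay outside the range of all 6 WT libraries and the adjusted p from limma was below 0.05. The entries next to that minimum were Ccin (6.36 in pMN, mean 10.0009 in WT motoneurons), just inside it, and Plin5 (9.99 in pMN, mean 6.67 in WT motoneurons), just outside it.

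In the ventral neural tube, sonic hedgehog from the notochord and floor plate and retinoic acid from the somites pattern dividing progenitors into domains, each marked by its own transcription factors. The domain that expresses Olig2 gives rise to motoneurons, which leave the cell cycle, switch on Mnx1, Isl1 and Lhx3, and grow cholinergic axons to muscle. A Cre reporter stays on in the descendants of a cell that made Cre, so tdTomato marks cells with an Olig2 history as well as cells with Olig2. The pMN and WT libraries also differ in origin (culture or embryo), reporter, dissociation, developmental time and summed sex-linked signal. These cannot be told apart from cell type here. In sorted populations, fewer cells of a type and less RNA per cell cannot be told apart either.

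The progenitor library held the gene it was sorted through and lacked most motoneuron signal. Olig2, a basic helix-loop-helix factor of the motoneuron progenitor domain (chr16:91225550-91228677, GRCm38), had a signal of 1495 in pMN, against 2.29, 3.03 and 7.86 at the lowest, median and highest of the 6 WT libraries. Mnx1, the homeobox factor of postmitotic motoneurons (chr5:29473823-29478470), had 75.9 in pMN, against 2194, 3218 and 3995 in WT motoneurons. The groups did not overlap for either gene, and Mnx1 was detected in pMN at a low level. Fxyd7, a small membrane protein that binds the sodium pump (chr7:31042515-31051454), was listed at 0 in pMN, against 2461, 3209 and 3335 in WT motoneurons. The unsorted neural progenitor library from the same day of differentiation had 191 for Olig2, 165 for Mnx1 and 0 for Fxyd7. Olig2 was thus present in both stem cell libraries, and its value was larger in the sorted one. The log2 differences were 8.38 for Olig2, -5.32 for Mnx1 and -11.56 for Fxyd7, with SEs of 0.51, 0.28 and 0.19.

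The signal is a length-scaled abundance scaled between libraries, so levels of different genes can be set side by side, and it is not a read count. Approximate depth was 25.8 M reads in pMN and 11.8 to 28.1 M reads in the WT libraries (M, 1e+06). At these depths 3 reads in a transcript of 2000 bases correspond to a signal of 1.21 in pMN and 0.994 to 2.67 in WT motoneurons, so values near or below these carry little information. Spearman's rho across genes was 0.703 to 0.715 between pMN and the WT libraries, 0.956 between pMN and the neural progenitor library, and 0.979 to 0.991 between WT libraries. Genes are not independent replicates, and these are descriptions of the libraries. With 1 library, the spread within pMN is unknown and the test assumes that it varies like the WT libraries. An exact permutation of 1 library against 6 cannot give a two-sided p below 0.286, so all calls rest on that assumption. The labels do not say that the WT replicates came from separate animals, and their spread may be technical in part.

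Most counted genes differed between the progenitors and the motoneurons. Of 14318 counted genes, 5208 were called higher in pMN (36.4%) and 4584 lower (32.0%), and 4526 were not called. By position alone, 6527 (45.6%) lay above all 6 WT libraries, 5656 (39.5%) lay below them and 2135 lay inside their range. Differences of at least 2-fold were called for 4069 genes that were higher and 3782 that were lower. These shares are the background against which the gene groups below are read. The pMN library had the largest total signal, 9.88 M, against 6.76 to 7.83 M in the WT libraries. Scaling each library to its total moved the median of all counted genes by -0.46 on the log2 scale, from a median of 0.13 as deposited. The calls then became 3810 higher and 5808 lower, so the share of calls that were higher was 39.6%, against 53.2% as deposited. All group results below were as deposited unless library totals are named.

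**Figure D1:**
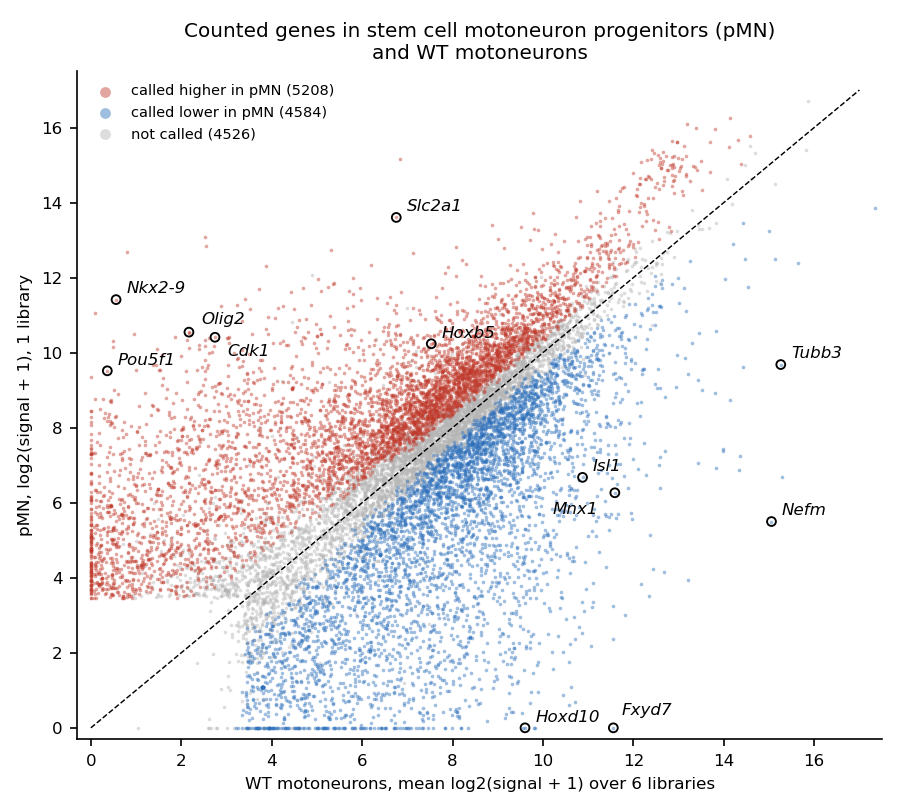
Each point is a counted gene, with its log2(signal + 1) in the single pMN library on the y axis and the mean of the 6 WT motoneuron libraries on the x axis; the dashed line marks equal values, red points were called higher in pMN and blue points lower. Genes lie on both sides of the line, 5208 red and 4584 blue, and Fxyd7 and Hoxd10 sit on the lower edge because they were listed at 0 in pMN.

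Among called genes with a value of at least 100, the 15 with the greatest positive differences held stem cell, retinoic acid and metal-binding genes together with 1 ventral patterning factor. Mt2 and Mt1 encode metallothioneins, which bind zinc and copper. Mt2 had 6536 in pMN, against 0, 0 and 4.75 at the lowest, median and highest of the WT libraries, and Mt1 had 7378 in pMN, against 0, 6.19 and 17.1 in WT motoneurons. Nkx2-9, a homeobox factor induced by sonic hedgehog next to the floor plate (chr12:56611389-56613569), had 2728 in pMN, against 0, 0.420 and 1.69 in WT motoneurons. Stra8, known as a gene stimulated by retinoic acid that acts in meiosis, had 2145 in pMN, against at most 0.454 in WT motoneurons. Cyp26a1, an enzyme that degrades retinoic acid, had 1277 in pMN, against at most 1.99 in WT motoneurons. Pluripotency and early embryo genes made up much of the rest. Dppa5a had 8722, Pou5f1 (the factor Oct4) 731 and Tex19.1 431 in pMN, against highest values of 11.1, 1.65 and 0.470 in WT motoneurons. Rhox5, Trap1a, Ifitm3, Upp1, Spp1 and Aqp8 had 438 to 1449.7 in pMN and at most 19.5 in any WT library. Cldn4, a tight junction protein of epithelia, had 650.2 in pMN and was listed at 0 in all 6 WT libraries. Most of these 15 genes were not particular to the sorted progenitors. The unsorted neural progenitors had 9926 for Stra8, 2765 for Cyp26a1 and 2809 for Cldn4. They had less than pMN for Nkx2-9 (208), Dppa5a (5817), Upp1 (961) and Aqp8 (34.7), and more for the rest of the 15. Since only called genes were ranked, the adjusted p of these 15 is a description, and it ran from 3.49e-07 (Cldn4) to 0.00236 (Upp1).

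The 15 greatest negative differences among called genes were neuronal genes and posterior Hox genes. After Fxyd7 came Rbfox1, a neuronal splicing factor, with 0.622 in pMN, against 1452, 1569 and 2319.7 in WT motoneurons. Actl6b, the neuronal actin-like subunit of the BAF chromatin remodelling complex (chr5:137553361-137569582), had 0.521 in pMN, against 1282, 1576 and 1649 in WT motoneurons. Both pMN values are below the signal of 3 reads in 2000 bases. Nefm, the medium neurofilament subunit of axons (chr14:68119545-68125004), stayed detectable at 44.2 in pMN, against 31261, 34472 and 37016 in WT motoneurons. Mapt, which encodes the microtubule protein tau, had 14.4 in pMN, against 7625 to 10916 in WT motoneurons, and Snap25, a protein of vesicle fusion, had 4.19, against 2512 to 4115. Acetylcholinesterase (Ache), the urotensin peptide gene Uts2b, Nyap2 and Hoxd10 were listed at 0 in pMN, while their lowest WT values were 718, 566, 685 and 632. Hoxc10, the choline transporter Slc5a7, the secretory granule gene Resp18, and the adhesion genes Slitrk1 and Pcdh10 had 0.312 to 1.14 in pMN and at least 589 in every WT library. No pMN value came near the WT range, and the fitted differences in log2(signal + 1) ran from -8.94 (Pcdh10) to -11.56 (Fxyd7).

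Transcription factors of ventral progenitor domains were mostly higher in pMN. Of 19 counted, 13 were called higher, 3 lower and 3 were not called, with a median log2 difference of 2.68, against 0.13 over all counted genes. Besides Olig2 and Nkx2-9, Olig1 had 963 in pMN, against 0.753, 3.27 and 6.39 in WT motoneurons. Factors of the neighbouring ventral domains were also there. Nkx2-2, the homeobox factor of the domain just ventral to the Olig2 domain, had 298 in pMN, against 0.680 to 15.8 in WT motoneurons. Foxa2, a forkhead factor of the floor plate, had 404 in pMN, against 0 to 27.3 in WT motoneurons, and its difference of 6.84 became 7.44 without WT replicate 6. Pax6 had 301 in pMN, against 4.99 to 40.5 in WT motoneurons. For Pax6 the highest WT library stood far from the rest, whose highest was 8.50. Nkx6-1, used by progenitors and by some motoneurons, differed less, at 1519.7 in pMN, against 211, 309 and 444 in WT motoneurons. The proneural factors Neurog2 and Neurog1, which start neuron formation, were higher by 2.40 (SE 0.40, adjusted p = 0.00184) and 4.74 (SE 1.20, adjusted p = 0.0119) on the log2 scale. The call for Neurog1 was lost without WT replicates 2, 3 and 4, and its WT values reached 16.6 in replicate 1 and at most 3.35 in the others. Neurod1, a later factor of differentiating neurons, was lower, with 78.96 in pMN, against 122 to 239.9 in WT motoneurons. Irx5 and Bcl6 were the other 2 that were lower, by -3.13 and -1.61. Irx3, Dbx1 and Hes6 were not called. Hes6 had 671 in pMN, inside the WT range of 517 to 899.

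Floor plate markers other than Foxa2 varied widely. Shares over all counted genes were 36.4% called higher and 32.0% lower. Of 9 counted, Foxa2 was called higher, Shh and Slit1 lower, and 6 were not called, with a median of 1.64. Foxa1, Ntn1 and Lmx1b, not called, had 25.1, 559.8 and 30.5 in pMN, above highest WT values of 9.75, 259.7 and 23.3. A second member was called higher with a pseudocount of 10, with quantile normalization, with all libraries sharing the spread, and without WT replicate 6 or without WT replicates 2, 3 and 4. Shh, the ligand itself, had 3.33 in pMN, against 54.3, 62.2 and 128 in WT motoneurons. Summed over all 12 markers in the list, the signal was 1561 in pMN, inside the WT range of 707 to 2186. The V1 interneuron markers had 4 of 8 counted members lower and none higher. Among V3 markers, Nkx2-2, which the list shares with the progenitor factors, was higher, the glutamate transporter Slc17a6 and Uncx were lower, and Olig3 was not called.

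**Figure D2:**
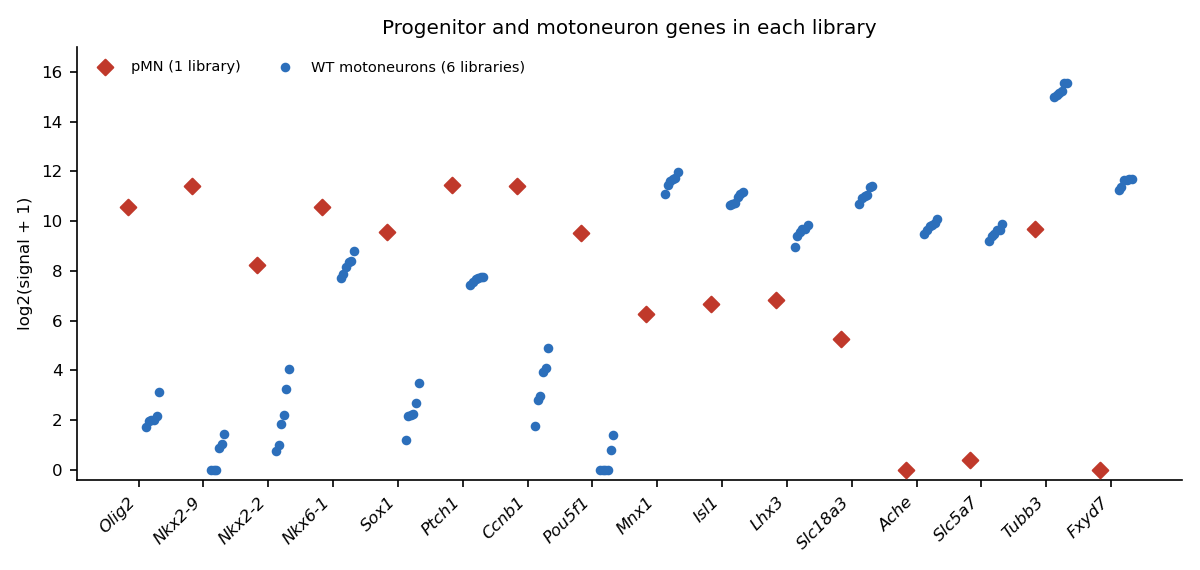
Signal in each library as log2(signal + 1) for 16 genes, with the single pMN library as a red diamond and the 6 WT motoneuron libraries as blue points to its right. The first 8 genes lie above all WT libraries in pMN, and the last 8 lie below all of them, with Ache and Fxyd7 listed at 0 in pMN.

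Response genes and receptors of the hedgehog pathway were higher in pMN, while the ligand was lower. Of 17 counted genes, 13 were called higher, 2 lower and 2 were not called, with a median difference of 2.59. Gli1, a transcription factor and direct target of the pathway, had 812 in pMN, against 0.288, 1.598 and 5.41 in WT motoneurons. Ptch1, the receptor and also a target, had 2838 in pMN, against 174, 203 and 214 in WT motoneurons, with a log2 difference of 3.83 (SE 0.13, adjusted p = 1.37e-06). Smo, the membrane protein that Ptch1 restrains and through which agonists act, had 1002 in pMN, against 52.7 to 79.9 in WT motoneurons. Hhip, which binds the ligand, had 98.6 in pMN, against 4.61 to 10.7 in WT motoneurons. These genes were also above the WT range in the unsorted neural progenitor library, at 258 for Gli1, 1055 for Ptch1 and 517 for Smo. Gpr161, a receptor that dampens the pathway, was lower, with 71.03 in pMN, against 168 to 252 in WT motoneurons. The coreceptor Cdon (92.3 in pMN, 64.7 to 104 in WT motoneurons) and Scube2 (29.5 in pMN, 3.26 to 17.6 in WT motoneurons) were not called, though Scube2 was called higher without WT replicate 2.

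Genes of neural progenitors and of the Notch pathway, which holds progenitors undifferentiated, were mostly higher. By comparison, 36.4% of all counted genes were called higher and 32.0% lower. Of 25 counted neural progenitor genes, 17 were called higher and 2 lower (median 2.86; 16 and 4 with library totals), and of 24 counted Notch genes, 14 were called higher and 4 lower (median 1.32). The SOXB1 factors of neural stem cells were among them. Sox1 had 747 in pMN, against 1.31, 3.72 and 10.1 in WT motoneurons, Sox3 had 1845, against 4.35, 9.27 and 19.5, and Sox2 had 1645, against 17.6, 44.8 and 102. The Notch effectors Hes5 and Hes1 had 1265 and 1221 in pMN, against highest WT values of 50.3 and 35.5. The receptors Notch1, Notch2 and Notch3 had 543, 398 and 340.4 in pMN, against highest WT values of 48.9, 23.6 and 35.9. Ligands differed less. Dll1 was higher by 1.73 (SE 0.33, adjusted p = 0.0036), Dll3 was not called, with 337 in pMN and 126 to 288 in WT motoneurons, and Jag2 was lower, with 102 in pMN, against 225 to 414. Rfng, a sugar transferase acting on Notch, and Numbl were lower as well, by -1.98 and -1.45, and so was Maml2. Of the progenitor genes, Ttyh1 and the adhesion protein N-cadherin (Cdh2) were lower. Vim, the intermediate filament vimentin, was not called, with 5496 in pMN and 3601, 4066 and 5184 in WT motoneurons. Under library totals the values of Vim and Cdon turned to -0.0594 and -0.31, also not called.

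Retinoic acid genes differed in both directions, where 36.4% of all counted genes were called higher and 32.0% lower. Of 17 counted, 8 were called higher, 3 lower and 6 were not called, with a median of 0.70; scaled to library totals, 5 were called higher and 5 lower. Among those that were higher, Cyp26a1 was given above, Dhrs3, which reduces retinaldehyde, had 422 in pMN, against 25.2, 42.2 and 50.8 in WT motoneurons, and the binding proteins Crabp1 and Crabp2 had 12457 and 14034, against highest WT values of 2029.5 and 4753. Aldh1a2, which makes retinoic acid and is known in motoneurons of limb levels, had 8.56 in pMN, against 1958, 2921 and 4373 in WT motoneurons, a log2 difference of -8.30 (SE 0.41, adjusted p = 5.81e-06). The receptor Rxrg was lower, with 1.51 in pMN, against 221 to 329.6 in WT motoneurons. Rara was higher by 0.78, a call lost with library totals and without WT replicate 5. Rarb was not called, with 324 in pMN, just below the WT range of 326 to 492.

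Cyp26a1 and Rarb, classical targets of retinoic acid receptors, are shown by their promoter sequences because they carry the same element and had unlike values. The element is a direct repeat of AGTTCA or GGTTCA with 5 bases (written N) between the repeats, searched on both strands. A gene was taken to hold it when any of its promoters did. That was so for 13 of 27025 RefSeq genes with a promoter (0.0481%). Of the 14 retinoic acid genes with a promoter in the table, 2 hold one. The sequences below are from RefSeq on GRCm38.p6, run from 250 bases before to 50 after the annotated start, and carry the repeat in capitals. Both matches lie just before the start, at bases -32 to -16 in Cyp26a1 (chr19:37697558-37697857, plus strand) and -53 to -37 in Rarb (chr14:16575427-16575726, minus strand). A match is a description of letters and not a measured site.
Cyp26a1: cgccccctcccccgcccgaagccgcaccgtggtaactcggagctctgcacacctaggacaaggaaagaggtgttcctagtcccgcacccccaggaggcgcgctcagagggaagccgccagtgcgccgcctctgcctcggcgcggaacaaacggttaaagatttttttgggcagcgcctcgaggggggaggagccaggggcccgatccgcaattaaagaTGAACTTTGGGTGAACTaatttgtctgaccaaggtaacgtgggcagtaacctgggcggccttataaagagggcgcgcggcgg
Rarb: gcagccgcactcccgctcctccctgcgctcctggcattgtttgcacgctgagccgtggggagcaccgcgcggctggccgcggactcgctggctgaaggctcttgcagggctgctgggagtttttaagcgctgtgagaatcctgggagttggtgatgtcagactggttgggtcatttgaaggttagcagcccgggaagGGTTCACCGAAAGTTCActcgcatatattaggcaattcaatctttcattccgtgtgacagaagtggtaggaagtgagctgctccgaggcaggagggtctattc

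Every counted gene of DNA replication and mitosis was higher in pMN. All 43 replication genes were called higher, with a median log2 difference of 4.12, and all 53 mitosis genes, with a median of 5.66, against a background of 36.4% called higher. Mcm3, a subunit of the helicase that opens replication origins, had 3308 in pMN, against 7.65, 11.6 and 19.7 in WT motoneurons. Cdc6, which loads that helicase, had 486 in pMN, against 1.17, 2.83 and 4.37 in WT motoneurons. Pcna, the sliding clamp of DNA polymerase, kept a level of 549.8 to 579 in WT motoneurons, with 7142 in pMN. Among mitosis genes, the cyclin Ccnb1 (chr13:100778739-100786486) had 2740.3 in pMN, against 2.41, 10.7 and 28.8 in WT motoneurons. Its kinase Cdk1 had 1360.1 in pMN, against 1.95, 6.82 and 12.01 in WT motoneurons. The checkpoint kinase Bub1b had 1344 in pMN, against 3.04 to 15.8 in WT motoneurons, and Aurkb, a kinase of chromosome segregation, had 1167, against 2.70 to 11.1. The unsorted neural progenitors had like levels, 1989.98 for Ccnb1 and 1020.00 for Cdk1.

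Promoters of some of these cell cycle genes hold known elements, in capitals below. In the mitosis genes these are TTTGAA, the core of the cell cycle homology region, and CCAAT. In the replication genes they are the E2F elements TTTGGCGC or TTTCCCGC. Each was searched on both strands in the same window of 300 bases. TTTGAA was found in 31 of 45 mitosis genes with a promoter in the table (68.9%), in 5 of 35 replication genes (14.3%) and in 13.6% of counted genes. CCAAT was found in 71.1% of the mitosis genes, 62.9% of the replication genes and 43.2% of counted genes. An E2F element was found in 13 of 35 replication genes (37.1%), 4 of 45 mitosis genes (8.89%) and 3.35% of counted genes. Over all 27025 genes with a promoter the shares were 20.2% for TTTGAA, 41.1% for CCAAT and 1.80% for E2F. The lists were not chosen by sequence, and no test of these shares was made. The promoters printed below were picked because they hold TTTGAA (mitosis genes) or an E2F element (replication genes). Genes without the element or with more than 1 promoter were passed over, so the sequences are examples only. Cdk1 (chr10:69352863-69353162, minus strand) holds 3 CCAAT and 2 TTTGAA matches, Bub1b (chr2:118597961-118598260, plus strand) 1 of each, Mcm3 (chr1:20820263-20820562, minus strand) 2 E2F matches and Cdc6 (chr11:98907901-98908200, plus strand) 1.
Cdk1: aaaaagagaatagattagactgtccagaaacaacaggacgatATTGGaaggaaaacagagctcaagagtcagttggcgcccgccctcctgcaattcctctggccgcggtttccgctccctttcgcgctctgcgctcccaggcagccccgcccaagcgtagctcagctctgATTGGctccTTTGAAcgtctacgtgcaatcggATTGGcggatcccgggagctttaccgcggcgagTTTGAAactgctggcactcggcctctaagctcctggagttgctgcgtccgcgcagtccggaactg
Bub1b: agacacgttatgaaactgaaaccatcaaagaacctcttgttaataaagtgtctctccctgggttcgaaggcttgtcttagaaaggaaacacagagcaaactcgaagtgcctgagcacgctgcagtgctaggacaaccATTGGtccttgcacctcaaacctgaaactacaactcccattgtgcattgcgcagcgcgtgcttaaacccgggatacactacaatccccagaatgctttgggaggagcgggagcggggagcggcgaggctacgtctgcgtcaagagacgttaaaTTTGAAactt
Mcm3: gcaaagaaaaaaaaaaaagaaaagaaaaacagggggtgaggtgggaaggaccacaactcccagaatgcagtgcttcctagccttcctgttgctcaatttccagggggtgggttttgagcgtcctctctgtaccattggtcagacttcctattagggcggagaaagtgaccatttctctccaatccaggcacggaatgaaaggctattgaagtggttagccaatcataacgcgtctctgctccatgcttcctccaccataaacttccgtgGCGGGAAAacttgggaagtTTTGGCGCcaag
Cdc6: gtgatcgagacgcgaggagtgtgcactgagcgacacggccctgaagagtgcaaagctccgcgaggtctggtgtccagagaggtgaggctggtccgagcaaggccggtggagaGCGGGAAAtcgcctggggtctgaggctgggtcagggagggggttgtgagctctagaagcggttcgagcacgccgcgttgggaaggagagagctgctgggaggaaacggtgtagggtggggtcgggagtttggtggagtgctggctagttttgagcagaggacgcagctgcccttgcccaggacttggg

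Cyclins, their kinases and inhibitors were more mixed, with 24 of 38 counted members called higher, 7 lower and a median of 2.17. Background shares were 36.4% called higher and 32.0% lower. Ccnd2, a cyclin of the first gap phase, had 3382 in pMN, against 19.03, 23.8 and 35.1 in WT motoneurons. E2f1, a factor that activates replication genes, had 530.5 in pMN, against 12.9 to 36.8 in WT motoneurons. The kinase Cdk5, which acts in postmitotic neurons, and its neuronal activators were lower. Cdk5r1, the activator p35, had 24.8 in pMN, against 2106, 2397 and 2739 in WT motoneurons. Inhibitors of the cell cycle went in both directions. Cdkn1c, the inhibitor p57, was lower, with 622 in pMN, against 1283 to 1561 in WT motoneurons. Cdkn1a, the inhibitor p21, was higher, with 560.03, against 118 to 178. Cdkn2a, whose locus makes inhibitors that accumulate in cultured cells, had 227 in pMN and 460.4 in the neural progenitors and was listed at 0 in all WT libraries. Cdkn1b, the inhibitor p27, was not called, with 384 in pMN, inside the WT range of 285 to 397.

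Motoneuron identity genes were lower in pMN with 1 exception, though several kept a signal. Of 24 counted, 23 were called lower and Nkx6-1 higher, with a median log2 difference of -4.07. Isl1, a LIM homeobox factor of motoneurons, had 101 in pMN, against 1593, 1846 and 2323 in WT motoneurons, and its partner Lhx3 had 113, against 503, 782 and 923. The V1 library had 9.83 for Isl1 and 9.20 for Lhx3, and the V3 library had 9.11 and 8.86. The V2a interneuron library had 34.4 for Isl1 but 3293 for Lhx3, above every WT motoneuron library. A signal of Lhx3 is therefore not particular to motoneurons in these data. Isl2 had 15.3 in pMN, against 460.5 to 741 in WT motoneurons. Chodl, known in fast motoneurons, had 1.28 in pMN, against 571 to 917 in WT motoneurons. The intermediate filament peripherin (Prph) had 83.2, against 4826, 6014 and 7874, and the neurotrophin receptor Ngfr had 106, against 4003 to 6427. Signal of these genes was not particular to the sorted cells. The unsorted neural progenitors had more than pMN for Prph (343). They had less for Isl1 (45.2), Lhx3 (21.9), Isl2 (4.35) and Ngfr (50.1), and Chodl was listed at 0.

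Of 11 cholinergic genes, 9 were called lower and 2 higher (median -2.85). Chat, which makes acetylcholine, had 4.88 in pMN, against 339, 375 and 499.8 in WT motoneurons. Slc18a3, the vesicular acetylcholine transporter, had 36.8 in pMN, against 1658, 2105 and 2720.3 in WT motoneurons. The receptor subunit Chrnb4 and the choline transporter Slc44a1, which is used in many cell types, were the 2 that were higher. Chrnb4 had 92.8 in pMN, against 37.2 to 49.2 in WT motoneurons, and Slc44a1 had 129, against 54.4 to 71.4.

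The study concerns miR-218, a motoneuron microRNA encoded within introns of the genes Slit2 and Slit3. Both genes make the same mature sequence, given by RefSeq on GRCm38.p6 at chr5:48223966-48223986 and chr11:35616840-35616860, with its seed (bases 2 to 8) in capitals. It is shown because both host transcripts were lower in pMN.
miR-218-5p: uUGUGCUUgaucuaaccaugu
Slit2, a secreted axon guidance protein, had 58.4 in pMN, against 1344, 1757 and 2219 in WT motoneurons, a log2 difference of -4.90 (SE 0.28, adjusted p = 1.02e-05). Slit3 had 139 in pMN, against 571, 589.6 and 694 in WT motoneurons, a log2 difference of -2.12 (SE 0.12, adjusted p = 1.25e-05). The unsorted neural progenitors had 24.7 for Slit2 and 62.5 for Slit3. The microRNA itself was not measured in these mRNA libraries.

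Of 21 counted published miR-218 targets, 8 were called higher, 10 lower and 3 were not called, with a median of -0.45. The count higher is near the share over all counted genes, of which 36.4% were called higher and 32.0% lower. Gja1, the gap junction protein connexin 43, had 1104 in pMN, against 2.04, 4.09 and 11.5 in WT motoneurons. Birc5, a protein of cell division, had 2412 in pMN, against 9.40 to 28.7 in WT motoneurons, and Tead1, a transcription factor of the Hippo pathway, had 489, against 111 to 154. Sost, a secreted inhibitor of Wnt signalling, had 104, against 3.37 to 18.99. Among the targets that were lower, Foxp2 had 5.36 in pMN, against 157 to 354 in WT motoneurons, and Robo1, a receptor for Slit proteins, had 84.03, against 563 to 796. Bmi1 was not called, with 268 in pMN and 229.99 to 331 in WT motoneurons.

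General neuronal genes were lower almost without exception. All 43 counted pan-neuronal genes were called lower (median -5.33), as were 36 of 37 vesicle release genes (-5.04), 33 of 34 transmitter receptor genes (-5.06) and 52 of 54 ion channel genes (-4.45), against a background of 32.0% called lower. Tubb3, the neuronal beta tubulin, had 821 in pMN, against 32977, 37224 and 48303 in WT motoneurons. Nefl, the light neurofilament subunit, had 102 in pMN, against 31957, 37763 and 51312 in WT motoneurons, and Dcx, a microtubule protein of young neurons, had 16.8, against 4901, 6602 and 9108. Nhlh1, switched on as neurons are born, had 96.7 in pMN, against 159 to 372 in WT motoneurons (adjusted p = 0.0322), and Onecut1 had 48.3, against 109 to 148. The call for Nhlh1 was lost with quantile normalization, without WT replicate 3 or 4 and without WT replicates 2, 3 and 4 together.

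In pMN, 35 of 54 counted ion channel genes, 24 of 34 transmitter receptor genes and 14 of 37 vesicle release genes had a signal below 10. Scn3b, a sodium channel subunit, had 3.50 in pMN, against 1790.03, 2136 and 2543 in WT motoneurons, and the potassium channel Kcnd2 was listed at 0, against 218 to 366. The channel gene called higher was Kcnk1, a background potassium channel, with 109 in pMN, against 13.7 to 32.6 in WT motoneurons. Cacnb2 was not called, at 22.3 in pMN and 22.3 to 41.5 in WT motoneurons. The glycine receptor subunit Glra2 had 1.77 in pMN, against 645 to 1098 in WT motoneurons. Glra1 was the receptor gene not called, at 32.1 in pMN and 36.03 to 69.5 in WT motoneurons. Of the vesicle genes, Syt1, the calcium sensor of release, had 2.22 in pMN, against 809 to 1121 in WT motoneurons. Doc2a was not called, with 227 in pMN, inside the WT range of 158 to 262.

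**Figure D3:**
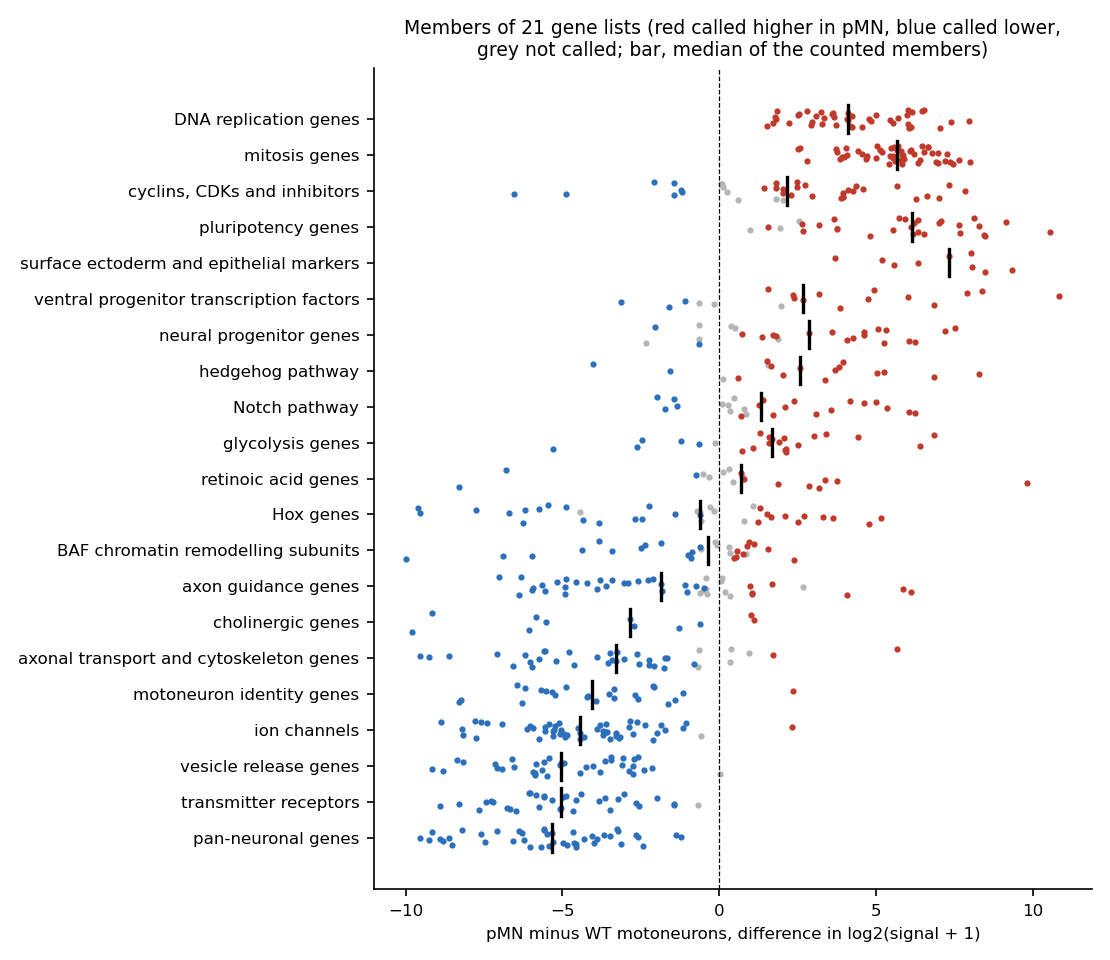
Each point is a counted member of 1 of 21 gene lists, placed by its pMN minus WT difference in log2(signal + 1); black bars are list medians. Medians run from 7.35 for the epithelial markers and 6.14 for the pluripotency genes to -5.33 for the pan-neuronal genes, against 0.13 for all counted genes.

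The sodium pump and its FXYD regulators were lower in 7 of 11 counted genes and higher in 2 (median -1.77). Across all counted genes, 32.0% were called lower and 36.4% higher. Fxyd6 had 691 in pMN, against 2170.2 to 3599 in WT motoneurons, and Fxyd3, known in epithelia, had 52.4, against at most 1.35.

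Of 37 counted genes of axonal transport and the cytoskeleton, 30 were called lower and 2 higher (median -3.28). The 2 were Tubb6, with 2015 in pMN, against 19.2 to 55.2 in WT motoneurons, and the progenitor filament Nes, with 749.6, against 176 to 271. The tubulins have near-identical copies, and counts may have been split among them. Axon guidance genes were lower in 28 of 45 counted and higher in 7 (median -1.84), and with library totals in 32 and 4. All counted genes together had 32.0% called lower and 36.4% higher. Dcc and Unc5c, receptors for netrin, had 5.24 and 2.34 in pMN, against lowest WT values of 399.7 and 340.1. Nrp1, a receptor for semaphorins, had 23.4 in pMN, against 1229.7, 1462 and 1882 in WT motoneurons. The ephrin receptors Epha2 and Ephb4 and the chemokine receptor Cxcr4 were higher in pMN, at 236, 288 and 428, against highest WT values of 3.61, 8.99 and 44.4.

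Gene pairs, each with 1 member taken as progenitor and 1 taken as neuronal, were compared within each library. The pairs were chosen with earlier results of these data known, so counts of pairs are descriptions and not a test. In all 17 pairs, the log2 ratio of the progenitor member to the neuronal one was higher in pMN than in every WT library. In 11 pairs the progenitor member was called higher and the neuronal one lower. For the actin-like subunits of the BAF complex, the log2 ratio of Actl6a to Actl6b was 10.0002 in pMN, against -2.65 to -1.99 in WT motoneurons. Actl6a itself had 1557 in pMN, against 263, 297 and 322 in WT motoneurons. The partner subunits Ss18 and Ss18l1 had a ratio of 3.79 in pMN, against -1.24 to -0.87 in WT motoneurons, and Phf10 and Dpf1 had 4.31, against -0.96 to -0.13. Ptbp1, which represses neuronal splicing, had 5700.3 in pMN, against 198, 299.9 and 376 in WT motoneurons, and its neuronal paralog Ptbp2 had 579, against 1345, 1541 and 1956. The members of this pair were both well detected in pMN. Pairs in which the progenitor member was not called were Tubb5 and Tubb3, Vim and Nefl, and Kif5b and Kif5a, and in each the neuronal member was lower. Tubb5 was called lower with library totals and with quantile normalization (-1.07 and -1.83), and Vim was called higher without WT replicates 2, 3 and 4 (0.52, adjusted p = 0.017). Kif5b, a general kinesin, had 677 in pMN, inside the WT range of 455 to 702, but was called higher without WT replicate 2, while the neuronal Kif5a had 46.9 in pMN, against 2723 to 3421 in WT motoneurons. Both members were lower for Smarca4 and Smarca2 and for Stmn1 and Stmn2. The call for Smarca4 was lost without WT replicate 2 or 5 and with a constant variance prior. Ezh2 was higher and Ezh1 was not called.

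**Figure D4:**
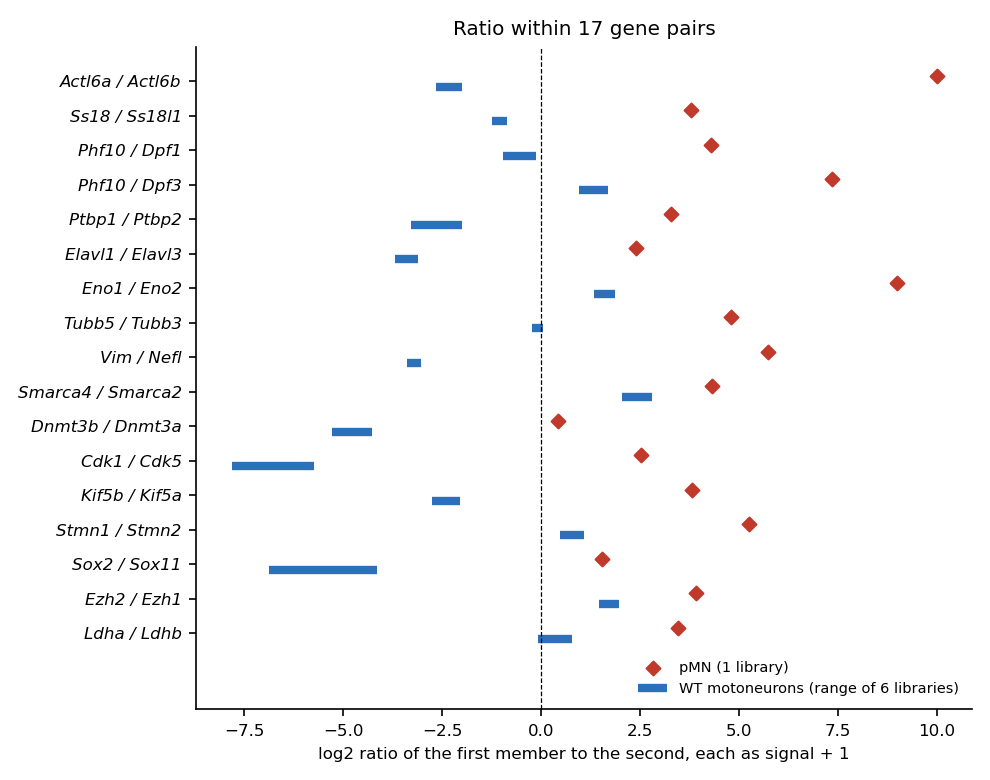
Log2 ratio of the first to the second member of 17 gene pairs, each value as signal + 1, with pMN as red diamonds and the range of the 6 WT motoneuron libraries as blue bars. The diamond lies to the right of the bar in all 17 pairs and above a ratio of 0 in all 17, while the WT bar lies wholly below 0 in 10.

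Over the whole list of BAF subunits, 9 of 28 were called higher and 13 lower (median -0.34), and with library totals 5 were called higher and 16 lower. Over all counted genes, 36.4% were called higher and 32.0% lower, and the lists in this paragraph are read beside these shares. Bcl11a and Bcl11b, neuronal subunits, were among the lowest, with 2.50 and 1.21 in pMN, against lowest WT values of 352 and 113. Regulators of neuronal RNA split into 15 called higher and 16 lower of 36 counted. Lin28a, which blocks let-7 microRNA maturation in early cells, had 2291 in pMN, against 5.87, 11.3 and 15.6 in WT motoneurons. Rest, a repressor of neuronal genes outside neurons, had 221 in pMN, against 10.6, 18.5 and 23.7 in WT motoneurons. DNA methylation and Polycomb genes were called higher in 14 of 30 and lower in 6 (median 0.42), and with library totals in 11 and 9 (median -0.00174). Dnmt3b, a methyltransferase of early embryonic cells, had 337 in pMN, against 7.19, 11.6 and 16.01 in WT motoneurons, and Dnmt3a had 249.01, against 297 to 359. Dnmt3a was lower by -0.37, a call lost without WT replicate 6.

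Hox genes, whose order along each cluster follows position along the body axis, split by paralog group. Set beside them, all counted genes had 36.4% called higher and 32.0% lower. Of 35 counted, 11 were called higher, 16 lower and 8 were not called, and with library totals 8 were called higher and 18 lower. In groups 1 to 3, 7 of 8 counted genes were called higher and none lower (median 2.08), and in groups 9 to 13, 10 of 12 were called lower and none higher (median -5.18). Groups 4 to 8 lay between, with 4 higher and 6 lower of 15 (median -0.57), and all 4 that were higher were in the Hoxb cluster. Hoxb1, which marks hindbrain levels, had 121 in pMN, against 0.854, 3.04 and 4.77 in WT motoneurons. Hoxb5 had 1206 in pMN, against 112, 164 and 425 in WT motoneurons. Hoxa5, Hoxc4 and Hoxc5, of cervical levels, were not called, and Hoxa5 had 567 in pMN, with 636 to 999.6 in WT motoneurons, and was called lower without WT replicate 6. Hoxc6 and Hoxc8, of limb and thoracic levels, had 8.62 and 9.20 in pMN, against 445 to 1015 and 1629.5 to 3166 in WT motoneurons. Hoxc9, which marks thoracic motoneurons, had 9.39 in pMN, against 371, 614 and 735 in WT motoneurons. Lumbar genes were at or near the limit of detection: Hoxd10 was listed at 0, and Hoxc10 had 0.844 in pMN, against 1105 to 1753 in WT motoneurons. Hoxb8 was higher and Hoxb9 lower, by 1.52 and -1.39, and Hoxb8 was no longer called with library totals or without WT replicate 4 or 5. Hoxb5, Hoxb8 and Hoxb9 were no longer called when WT replicates 2, 3 and 4 were left out together. In WT replicate 1, the values of Hoxb4, Hoxb5 and Hoxb6 stood above the other WT libraries, and without it all 3 genes were still called.

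**Figure D5:**
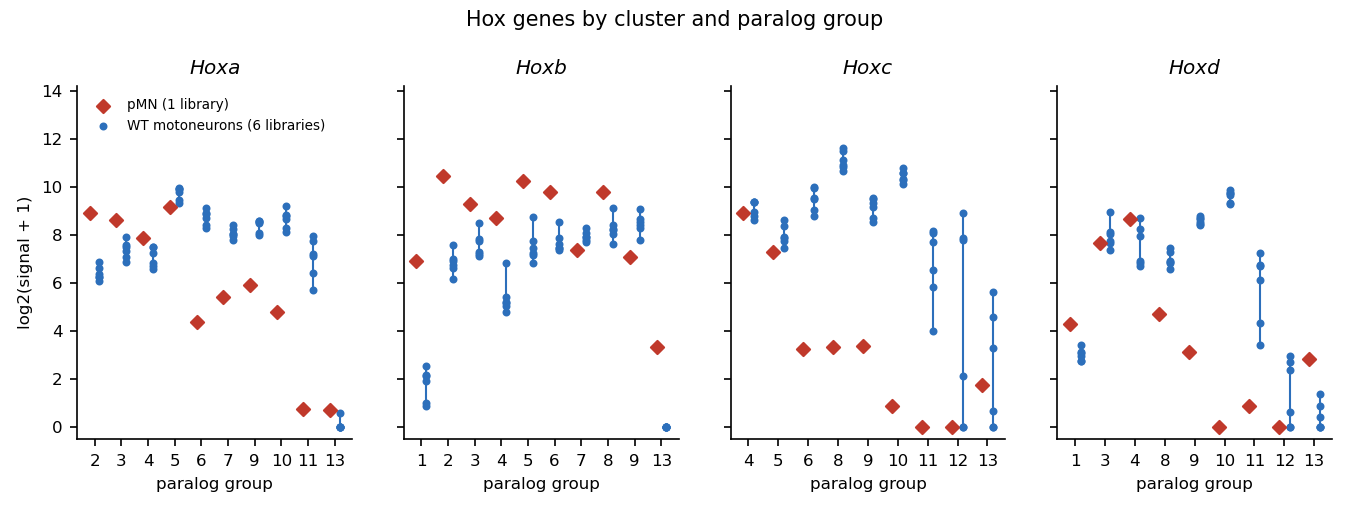
Signal of Hox genes as log2(signal + 1), by cluster and paralog group, with the single pMN library as red diamonds and the 6 WT motoneuron libraries as blue points joined by their range. Diamonds lie above the WT range for most low paralog groups of Hoxa and Hoxb, and below it for most groups from 9 on.

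Markers of hindbrain and visceral motoneurons, whose visceral class arises from Nkx2-2 progenitors, were called in shares near those of all counted genes (36.4% higher, 32.0% lower). Of 8 counted, 3 were called higher and 2 lower, with a median of 2.39. Among them, the homeobox factor Phox2a and the T-box factor Tbx20 were higher, at 88.8 and 15.04 in pMN, against highest WT values of 6.16 and 3.44. The neuronal nitric oxide synthase Nos1 was lower, and Tbx3, Egr2 and Gata3 were not called. Tbx3, also in the pluripotency list, was called higher without WT replicate 6 and with a pseudocount of 10.

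Pluripotency genes kept a signal in the sorted progenitors. Of 30 counted, 26 were called higher, none lower, and Klf2, Klf4, Tbx3 and Fgf5 were not called (median 6.14). Klf2 was called higher with a pseudocount of 10, and Klf2 and Fgf5 without WT replicates 2, 3 and 4. Nanog, a core factor of the pluripotent state, had 770.2 in pMN, against 0, 6.597 and 12.2 in WT motoneurons, and 533 in the unsorted neural progenitors. Sall4 had 594 in pMN, against 1.05 to 5.34 in WT motoneurons, and Utf1 had 282 in pMN and was listed at 0 in all WT libraries. Pou5f1, given above, had 956 in the neural progenitors. The whole list summed to 17874 in pMN and 20306 in the neural progenitors, against 262 to 491 in the WT libraries. Klf4, a factor also induced by stress, had 185 in pMN, inside the WT range of 8.68 to 199.

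Markers of other germ layers were detected with them. All 9 counted surface ectoderm and epithelial markers were called higher (median 7.35), and 12 of 14 mesoderm and endoderm markers, some of which are in both lists. The epithelial list summed to 3482 in pMN, against 13.7 to 19.6 in the WT libraries, and 18667 in the unsorted neural progenitors. Its defining members were present: E-cadherin (Cdh1) had 509 in pMN and at most 0.948 in WT motoneurons, Epcam had 469, against 2.03 to 7.75, and the keratins Krt8 and Krt18 had 743 and 523, against highest WT values of 3.93 and 6.79. Gata4 and Gata6, factors of endoderm and heart, had 257 and 159 in pMN, against highest WT values of 0.964 and 0.207. Meox1, a factor of somites, had 270.1 in pMN, against at most 1.28 in WT motoneurons. The mesoderm and endoderm list summed to 2766 in pMN, against 36.6 to 94.9 in WT motoneurons. Whether cells of these kinds passed the sort with the progenitors was not tested. Blood markers were not called in any of 6 counted genes, and their sum was 34.6 in pMN, against 13.9 to 1671 in WT motoneurons. None of the 10 microglia and macrophage markers reached the minimum of 10 by pMN value or WT mean, and 6 were listed at 0 in pMN. Their sum was 13.3 in pMN, against 4.67 to 223 in the WT libraries, so some WT libraries held such signal. Without WT replicates 2, 3 and 4, 6 of these markers reached the minimum.

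Glycolysis genes were higher in 17 of 23 counted and lower in 5 (median 1.70). Slc2a1, the general glucose transporter, had 12456 in pMN, against 89.9, 108 and 116 in WT motoneurons, with a log2 difference of 6.85 (SE 0.15, adjusted p = 3.75e-07). Hexokinase 2 (Hk2), which traps glucose in the cell, had 884 in pMN, against 7.34, 8.96 and 12.2 in WT motoneurons, while Hk1, the main hexokinase of brain, had 228, against 1179, 1381 and 1723. Ldha, which makes lactate, had 17966 in pMN, against 2204 to 4130.1 in WT motoneurons. The neuronal enolase Eno2 had 25.8 in pMN, against 885 to 1330.2 in WT motoneurons. The stem cell libraries were unlike each other for Eno2, which had 615 in the unsorted neural progenitors. Pfkfb3 was the member not called, with 372 in pMN and 343 to 437 in WT motoneurons.

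The p53 and apoptosis genes were higher in 11 of 19 counted and lower in 4 (median 1.02). Trp53 itself, the tumour suppressor p53, had 2205 in pMN, against 368, 426 and 467 in WT motoneurons, and its target Pmaip1 had 181, against 3.58 to 10.4. Sesn2, a stress sensor, had 1132 in pMN, against 89.1 to 135 in WT motoneurons. The survival factor Bcl2 was lower, with 28.4 in pMN, against a lowest WT value of 56.3, as were Casp9 and Bcl2l1. Genes known to respond to cell dissociation were called higher in 5 of 14 and lower in 1 (Jun). The count higher is near the share over all counted genes, of which 36.4% were called higher and 32.0% lower. The sum of these 14 genes was 6806 in pMN, inside the WT range of 5460 to 16495.

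The promoters of both metallothionein genes are shown because both genes were at high levels in both stem cell libraries and near 0 in WT motoneurons. Capitals mark the core of the metal response element, TGCACNC or TGCGCNC, on either strand. Mt2 (chr8:94172368-94172667, plus strand) holds 4 matches and Mt1 (chr8:94178839-94179138, plus strand) 3. At least 3 matches in a promoter were found for 2.27% of all genes with a promoter and 4.04% of those counted. For at least 4 matches the shares were 0.588% and 1.05%.
Mt2: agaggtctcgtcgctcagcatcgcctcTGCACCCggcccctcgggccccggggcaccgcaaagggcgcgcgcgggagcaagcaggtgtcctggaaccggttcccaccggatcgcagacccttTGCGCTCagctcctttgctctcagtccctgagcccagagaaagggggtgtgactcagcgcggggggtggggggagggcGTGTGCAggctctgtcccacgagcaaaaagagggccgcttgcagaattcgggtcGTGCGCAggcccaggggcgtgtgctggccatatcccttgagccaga
Mt1: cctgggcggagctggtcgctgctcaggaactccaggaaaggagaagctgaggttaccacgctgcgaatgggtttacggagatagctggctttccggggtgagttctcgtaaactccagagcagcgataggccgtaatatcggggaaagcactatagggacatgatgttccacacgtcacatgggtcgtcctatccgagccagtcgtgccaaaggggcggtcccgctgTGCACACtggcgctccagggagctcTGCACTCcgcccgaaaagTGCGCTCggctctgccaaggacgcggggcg
The unsorted neural progenitors had 13584 for Mt2 and 13422 for Mt1, and the V3 library had 703 for Mt1 but 8.28 for Mt2.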

How the data were processed

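The authors deposited, per the file headers, a signal per gene on RefSeq gene models, with no counts. The 75th percentile of this signal was nearly equal in all libraries. In genes with 1 transcript, low values were multiplied by transcript length, and 74.3% to 76.6% lay within 0.1 of whole multiples of 1 constant per library. The constant was chosen as the best match to these same values. The 20% given by chance holds for a constant fixed beforehand, so it is only a rough guide here. The approximate depths come from that constant. The submitters' processing notes name DESeq, bedtools, mm9 and mm10 without a role; the aligner is not given in the sources used here, and contig names in the table are those of mm10. Per the labels' protocols, polyadenylated RNA was sequenced with a kit that does not mark strand, so overlapping antisense genes cannot be told apart.

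The pMN library was set against the 6 WT motoneuron libraries by limma 3.58.1 (R 4.3.3), fitted to log2(signal + 1) with its variance prior following the mean, two-sided, for 16804 genes with a mean of at least 1, and Benjamini-Hochberg adjustment over all of them. SEs are from that fit; log2 differences include the pseudocount of 1 and so understate changes of low genes. The script was tested on simulated data. Named were the markers, the 15 called genes with the greatest difference in each direction at a value of at least 100, up to 6 called members per list and direction, both members of each pair and genes of small counts. Some list members were named after their values were seen for their known role. The members, the 44 lists and the 17 pairs were chosen with earlier results of these data known. Promoters and microRNAs are from RefSeq tables on GRCm38.p6. Alternatives were other pseudocounts, filters, scalings and variance priors, leaving out WT libraries, and the transcript table. Floor plate cells were not analysed here, and values of some list members are not reported here. Python 3.11.15 with pandas 2.3.3 was used for lists and figures.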

Additional observations from a re-analysis of the deposited data

Results flagged for a closer look

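Of 161 named genes with a WT value of at least 10, 17 had 1 WT motoneuron library far from the other 5, while chance gives about 1 in 20 groups. WT replicate 1 was the highest for 9 of them. They were Pax6 (40.5, next 8.50), Neurog1 (16.6, next 3.35), Neurog2 (62.5, next 38.3), Dbx1 (19.4, next 3.07), Hes5 (50.3, next 21.1), Hoxb4 (111.9, next 41.1), Hoxb5 (424.5, next 214.9), Hoxb6 (365.6, next 231.3) and Spp1 (19.5, next 4.03). The genes are progenitor factors, Hoxb genes and Spp1, and in pMN all but Dbx1 were called higher. The value of Dbx1 in pMN was 10.5, inside the WT range.

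WT replicate 2 stood apart for 4 genes, as the highest for Rbfox1 (2320, next 1751) and Kif5b (702, next 531), and as the lowest for Actl6b (1282, next 1520) and Slc2a1 (89.9, next 107). WT replicate 6 was the highest for Foxa2 (27.3, next 9.33), Shh (128, next 79.4) and Sost (19.0, next 8.63). WT replicate 3 was the highest for Cdkn1a (178, next 135). Of these, Kif5b was not called with all libraries and was called higher in pMN without WT replicate 2 (adjusted p = 0.01169). The others were called with all libraries and without the library that stood apart.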

How the results depend on the processing

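The count of genes called stayed within 1.5 times the reported 5208 higher and 4584 lower under all 17 alternatives. Leaving out 1 WT library gave 4969 to 5374 higher and 4413 to 4742 lower, and leaving out WT replicates 2, 3 and 4, which had high 45S ribosomal RNA, gave 5627 and 5114. The transcript table gave 5380 and 5240 of 18785 transcripts. Library totals gave 3810 and 5808. No paired analysis was possible because the pMN library has no replicate number and is alone in its group. Of 169 named genes that were called, 161 were called under all 16 alternatives on the gene table and 164 without any single WT library. The sign turned, for genes that were not called in either case, in Vim (-0.0594 with library totals and -0.0615 with quantile normalization), Cdon (-0.31 with library totals and -0.104 without WT replicates 2, 3 and 4), Doc2a (-0.403 with library totals, -0.0770 to 0.0689 over the fits without 1 WT library, and -0.0498 without WT replicates 2, 3 and 4), Kif5b (-0.0813 with library totals) and Cdkn1b (-0.174 with library totals). Genes not called here that library totals called lower were Irx3, Rarb, Glra1, Tubb5, Hoxa5, Hoxc5, Ezh1 and Pfkfb3. Without WT replicates 2, 3 and 4, Vim, Kif5b, Klf2 and Fgf5 became called higher and Cacnb2 and Glra1 lower, while Neurog1, Nhlh1, Hoxb5, Hoxb8 and Hoxb9 lost their calls. A pseudocount of 10 called Scube2, Klf2 and Tbx3 higher, quantile normalization called Scube2 higher and Tubb5 lower, and sharing the spread over all libraries called Ezh1 lower. The cause was not tested. With 1 pMN library, its own spread stays unmeasured.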

Other observations

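Mesenchyme markers were called higher in pMN in 5 of 7 counted genes and lower in none, at low levels. Twist1, a factor of mesenchyme, had 36.6 in pMN, against at most 1.505 in WT motoneurons, and Pdgfra, a growth factor receptor of mesenchyme and of the oligodendrocyte lineage, had 79.96 in pMN, against 0.125 to 1.70. The summed level of the 11 markers was 301 in pMN, 14.7 to 209 in the WT libraries and 635 in the unsorted neural progenitors. Of the oligodendrocyte lineage, 4 of 10 counted markers were called higher and 5 lower, against 36.4% and 32.0% of all counted genes. Sox10 did not reach the minimum of 10, with 5.65 in pMN and 0 to 4.87 in WT motoneurons. Myrf, a factor of myelinating cells, had 106.6 in pMN, against 21.7 to 32.9 in WT motoneurons, and Mog, a myelin protein, had 0.946 in pMN, against 35.4 to 73.1. Among astroglial markers, the glutamate transporter Slc1a3 had 414 in pMN, against 3.31 to 48.4 in WT motoneurons, while the gliogenic factor Nfia had 6.46 in pMN, against 191 to 374.5. The part that other cells played in these values was not tested.

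The 4 Y-linked genes measured were listed at 0 in pMN, while Ddx3y had 258 in the unsorted neural progenitor library, and Xist had 1.31 in pMN and 7.01 in the neural progenitors. The 2 stem cell libraries were therefore unlike for Y-linked signal, and comparisons between them include that difference. The 6 sex-linked genes listed summed to 8.80 in pMN and 1334 in the neural progenitors, against 505 to 1203 in the WT libraries. For each of the 5 counted, pMN lay inside the WT range. Comparing pMN with WT motoneurons therefore includes a difference in summed sex-linked signal too.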
